A study of Mus musculus with 20 samples.

Results

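A set of 10 genes that mark the subfields of the hippocampus was followed through 20 libraries of bulk RNA from whole mouse hippocampus. They are 10 of the 49671 genes in the deposited tables, and they were taken from a fixed list: Prox1, C1ql2, Dsp, Tdo2 and Lct for the dentate gyrus, Wfs1 and Fibcd1 for field CA1, Rgs14 for field CA2, and Bok and Iyd for field CA3. Each of the 10 symbols matched 1 gene identifier, and all 10 genes passed the filter on low counts. The question was whether the subfields trade off between dissections, so that a library rich in one is poor in another, and whether their levels differ between the groups of the study. The animals were wild-type male mice of 10 to 12 weeks, and 1 frozen hippocampus from each of 5 brains per group was sequenced. Controls had no tumour and were given an isotype-matched antibody into the peritoneum. The ICI group had no tumour and was given immune checkpoint inhibitors by the same route, namely an antibody against CTLA-4 (1 mg, 3 times a week) and one against PD-1 (200 µg, 2 times a week). The melanoma group carried tumours of D4M-3A.UV2, a mouse melanoma line injected into the skin on both sides at 500000 cells per injection, and was given the isotype antibody after 1 week of engraftment. The melanoma plus ICI group carried the same tumours and was given the checkpoint inhibitors, for 3 weeks according to the labels. The brains of all groups were taken 72 h after the last injection.

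The hippocampus is a chain of fields with different principal neurons. Granule cells of the dentate gyrus send mossy fibres to the pyramidal cells of CA3, which project through the Schaffer collaterals to CA1, while the small field CA2 lies between CA3 and CA1. Each of these cell types expresses a characteristic set of genes, so the level of such a gene in bulk tissue depends on how much of its field is in the piece and on how strongly the cells express it. These 2 quantities, fewer cells of a type and less RNA per cell, cannot be told apart in bulk samples.

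Promoter sequence was available from RefSeq (build GRCm38.p6) for 9 of the 10 genes. The 250 bases before the start site are shown for 4 of them: for Dsp and Lct, whose levels followed each other most closely, for C1ql2, which followed Prox1, and for Wfs1, whose relation to most other markers was weak. Capitals mark the E-box, CANNTG, a motif of basic helix-loop-helix factors that was searched on both strands and reads as the same pattern on each; no other motif was searched. The windows are C1ql2 at chr1:120340332-120340581 (plus strand), Dsp at chr13:38151044-38151293 (plus strand), Lct at chr1:128328319-128328568 (minus strand) and Wfs1 at chr5:36988983-36989232 (minus strand).
C1ql2: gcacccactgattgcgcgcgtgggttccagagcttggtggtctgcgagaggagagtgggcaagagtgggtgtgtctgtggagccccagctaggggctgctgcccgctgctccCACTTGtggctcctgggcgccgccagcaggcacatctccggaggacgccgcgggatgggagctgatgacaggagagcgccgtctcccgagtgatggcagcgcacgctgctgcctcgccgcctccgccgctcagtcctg
Dsp: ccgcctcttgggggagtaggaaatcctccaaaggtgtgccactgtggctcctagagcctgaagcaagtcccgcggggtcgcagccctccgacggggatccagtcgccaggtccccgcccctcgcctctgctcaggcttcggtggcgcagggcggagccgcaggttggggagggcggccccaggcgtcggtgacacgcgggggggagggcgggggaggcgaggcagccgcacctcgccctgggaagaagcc
Lct: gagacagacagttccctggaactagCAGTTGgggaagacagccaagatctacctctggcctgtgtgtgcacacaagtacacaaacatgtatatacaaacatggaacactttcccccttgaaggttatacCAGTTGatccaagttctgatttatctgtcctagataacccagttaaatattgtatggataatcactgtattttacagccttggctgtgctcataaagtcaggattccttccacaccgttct
Wfs1: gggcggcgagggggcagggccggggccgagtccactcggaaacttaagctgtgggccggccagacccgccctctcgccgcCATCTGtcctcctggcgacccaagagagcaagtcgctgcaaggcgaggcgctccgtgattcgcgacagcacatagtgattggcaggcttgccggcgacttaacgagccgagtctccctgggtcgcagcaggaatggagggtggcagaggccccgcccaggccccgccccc

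The E-box was found in 5 of the 10 windows of the marker genes (Prox1 has 2 start sites and so 2 windows). Among all 32851 promoter windows of this length, 66.2% held it. Dsp and Lct, the closest pair by level, differed here: the Dsp window held 0 E-boxes and had a GC content of 72.4%, and the Lct window held 2 and had a GC content of 42.8%. A match is a stretch of letters and not a shown binding site.

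The libraries held between 21990624 and 25735149 counts. Within a group the depth varied little: control averaged 23.4 ± 1.28 M counts (SD, n = 5), the ICI group 23.1 ± 1.06 M, the melanoma group 23.4 ± 0.899 M, and melanoma plus ICI 24.2 ± 1.18 M. Levels are given as CPM, the count of a gene relative to the TMM-scaled size of its library. Several libraries stood apart before any comparison was made. Melanoma plus ICI replicate 3 had the lowest level of 6 of the markers (Prox1, C1ql2, Tdo2, Fibcd1, Rgs14 and Iyd) and the highest summed level of neocortex markers, 510.9 CPM beside a median of 250.4 CPM over the 20 libraries. Melanoma replicate 3 had the lowest Dsp and Lct and the highest summed level of striatum markers, 1252 CPM beside a median of 153.2 CPM. On the first principal component of all genes, 18 libraries lay between -40.9 and 27.5, while control replicate 4 was at 71.4 and replicate 1 of melanoma plus ICI at 61.5. For several results that rest on these libraries, values without them are given too.

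All 5 dentate gyrus genes varied widely between libraries of the same group. Prox1 (chromosome 1, 190118035 to 190170714, minus strand) encodes the homeobox factor that maintains granule cell identity. It was measured at 38.5, 181.5, 104.6, 66.05 and 109.3 CPM in control replicates 1 to 5 and at 76.8, 109.1, 187.1, 154.1 and 51.4 CPM in ICI. In melanoma it was at 131.1, 60.3, 42.4, 65.1 and 66.0 CPM, and in melanoma plus ICI at 47.05, 66.8, 21.95, 75.9 and 53.8 CPM. The control and ICI groups each spanned low and high libraries, 4 of the 5 melanoma libraries lay below 70 CPM, and the ranges of all 4 groups overlapped. An antisense gene, Prox1os, overlaps exons of Prox1 and held 3.03% as many counts; whether counting used the strand is not given in the sources used here.

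C1ql2 (chromosome 1, 120340582 to 120343174, plus strand) encodes a secreted C1q-like protein of mossy fibre synapses. Its level was 40.2, 153.1, 96.6, 76.1 and 89.45 CPM in control and 68.5, 82.2, 195.4, 119.7 and 37.4 CPM in ICI. It was 81.3, 42.5, 25.7, 48.4 and 48.5 CPM in melanoma and 59.45, 63.9, 6.81, 54.2 and 45.8 CPM in melanoma plus ICI. Replicate 3 of the last group stood far below its group, and the other 4 lay within the control range.

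Lct (chromosome 1, 128284756 to 128328318, minus strand), the gene for lactase, had the widest fold range of the 10 markers. It was at 3.45, 126.7, 30.35, 20.8 and 66.15 CPM in control and at 22.35, 45.7, 120.9, 92.1 and 9.96 CPM in ICI. In melanoma it was at 45.5, 31.8, 1.56, 35.2 and 24.9 CPM, and in melanoma plus ICI at 12.4, 10.9, 2.01, 14.5 and 6.94 CPM. All 5 libraries of melanoma plus ICI lay below 15 CPM, as did 1 control, 1 ICI and 1 melanoma library, so the groups overlapped.

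Dsp (chromosome 13, 38151328 to 38198577, plus strand) encodes desmoplakin, a plaque protein of desmosomes. Its lowest and highest levels were 4.29 CPM in melanoma replicate 3 and 164.5 CPM in control replicate 2, which were also the extremes of Lct. Group means of Dsp were 68.2 ± 62 CPM for control (SD, n = 5), 80.1 ± 52 for ICI, 45.7 ± 31.97 for melanoma and 18.95 ± 9.54 for melanoma plus ICI. Tdo2 (chromosome 3, 81957090 to 81976202, minus strand), a dioxygenase that starts the breakdown of tryptophan, was the least abundant of the 5, between 0.426 and 8.24 CPM. Its lowest library, melanoma plus ICI replicate 3, held 11 counts, for which the counting error alone is 30.2%.

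On the log2 scale Wfs1 varied less than all 5 dentate genes and Fibcd1 less than 4 of them. Each shared an extreme library with Prox1, C1ql2 and Tdo2: Wfs1 was highest in ICI replicate 3 and Fibcd1 lowest in melanoma plus ICI replicate 3. Wfs1 (chromosome 5, 36966104 to 36989205, minus strand) encodes wolframin, a protein of the endoplasmic reticulum membrane. It was at 206.3, 227.3, 113.1, 101.6 and 136.1 CPM in control and at 138.7, 153.8, 249.1, 173.1 and 210.4 CPM in ICI. In melanoma it was at 157.2, 220.3, 82.9, 114.4 and 187.3 CPM, and in melanoma plus ICI at 67.6, 139.5, 71.3, 122.3 and 186.9 CPM. Control replicate 1 and ICI replicate 5, both low for Prox1 and Lct, were among the libraries with over 200 CPM of Wfs1.

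Fibcd1 (chromosome 2, 31813290 to 31846005, minus strand), a membrane receptor that binds acetylated sugars such as chitin, was at 88.45, 156.6, 193, 103.3 and 73.3 CPM in control. It was at 162.8, 158.5, 155, 135.9 and 110.2 CPM in ICI and at 122.3, 134.6, 141.5, 165.1 and 74.2 CPM in melanoma. In melanoma plus ICI it was at 78.55, 136, 10.3, 98.8 and 147.3 CPM. A single library, melanoma plus ICI replicate 3, set the lower end of its range, and the next lowest of the 20 was control replicate 5 at 73.3 CPM.

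Rgs14 (chromosome 13, 55369732 to 55384687, plus strand), a regulator of G protein signalling that restrains plasticity in CA2, had the smallest SD of the 10 on the log2 scale. It was at 46.9, 118.2, 82.0, 75.2 and 63.15 CPM in control and at 90.9, 84.0, 150.4, 114 and 57.9 CPM in ICI. In melanoma it was at 83.5, 102.7, 63.7, 108.3 and 66.4 CPM, and in melanoma plus ICI at 65.98, 66, 36.6, 50.98 and 69.5 CPM. No library of melanoma plus ICI exceeded 70 CPM, a level that 3 of 5 control, 4 of 5 ICI and 3 of 5 melanoma libraries passed.

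Bok (chromosome 1, 93685660 to 93695764, plus strand), a member of the Bcl family of regulators of cell death, was at 32.5, 77.2, 55.7, 118.6 and 55.4 CPM in control and at 48.5, 57.0, 99.9, 81.2 and 28.8 CPM in ICI. It was at 51.8, 71.3, 32.9, 117.6 and 52.95 CPM in melanoma and at 68.7, 45.5, 44.01, 56.9 and 57.9 CPM in melanoma plus ICI. Replicate 4 of control and of melanoma had the most Bok. Iyd (chromosome 10, 3540240 to 3554877, plus strand), which recovers iodide from iodotyrosines in the thyroid, was scarce, between 0.194 and 8.67 CPM. Its lowest library, again melanoma plus ICI replicate 3, held 5 counts, with a counting error of 44.7%.

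**Figure D1:**
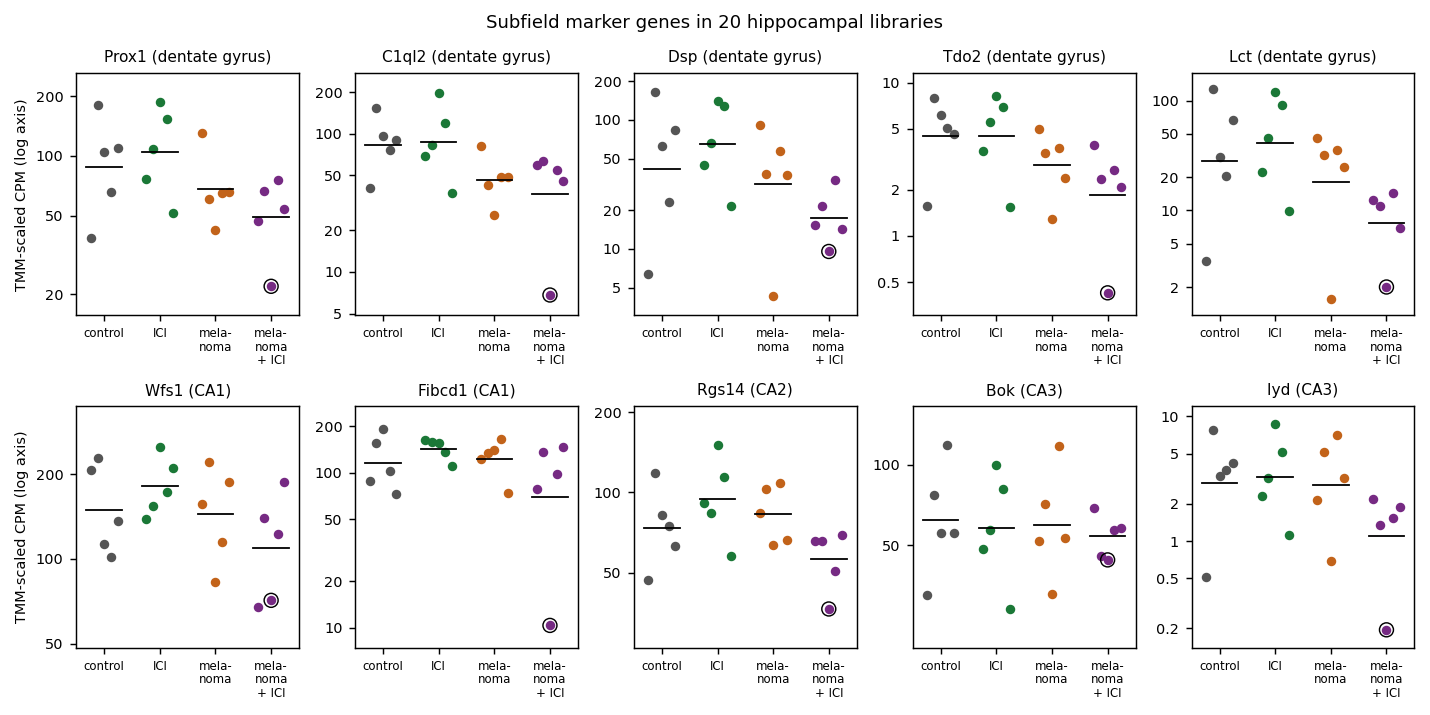
TMM-scaled CPM of the 10 markers on log axes, 1 panel per gene, 1 point per library in replicate order, for the 4 groups; horizontal bars are geometric means of 5 libraries, and the ring marks melanoma plus ICI replicate 3. That library is the lowest of 20 for Prox1, C1ql2, Tdo2, Fibcd1, Rgs14 and Iyd, and the groups overlap in every panel.

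Levels of different genes were compared per kilobase of exon. The order of mean level was Wfs1 (40.4 ± 14.1 CPM per kilobase, SD over 20 libraries), C1ql2 (35.9 ± 22.1), Bok (34.1 ± 13.9), Rgs14 (32.1 ± 11.1), Fibcd1 (25.7 ± 9.02), Prox1 (10.2 ± 5.60), Lct (5.65 ± 5.87), Dsp (5.53 ± 4.86), Iyd (2.01 ± 1.497) and Tdo2 (1.01 ± 0.574). Among neighbours in this order, the step from Fibcd1 to Prox1 was larger than the SD of either gene, and every other step was smaller than the larger of the 2 SDs.

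The spread of the markers over libraries was large beside that of other genes. The highest library exceeded the lowest 81.3-fold for Lct, 44.8-fold for Iyd, 38.4-fold for Dsp, 28.7-fold for C1ql2, 19.4-fold for Tdo2, 18.7-fold for Fibcd1 and 8.52-fold for Prox1. It exceeded the lowest 4.12-fold for Bok, 4.11-fold for Rgs14 and 3.68-fold for Wfs1. On the log2 scale the SD over 20 libraries ran from 0.49 for Rgs14 to 1.79 for Lct, where the median of the 15515 genes with a mean of at least 1 CPM was 0.23. Between 87.9% (Rgs14) and 99.8% (Lct) of those genes had a smaller SD. Most of this variance lay within the groups: the share between groups was 1.86% for Bok and between 20.1% (Fibcd1) and 32.9% (Rgs14) for the other 9, beside a median of 14.7% over genes.

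No pair of the 10 markers had a negative r across the libraries. Over the 45 pairs of the 10 markers, Pearson's r of log2 CPM across the 20 libraries was above 0 in all 45, from 0.02 for Wfs1 and Bok to 0.97 for Dsp and Lct, with a median of 0.72. In 39 pairs the adjusted permutation p was under 0.05 (two-sided, 100000 resamples, Benjamini-Hochberg over the 45 pairs). The median r of a marker with all other genes lay between -0.04 (Wfs1) and 0.01 (Bok). A group of 5 libraries is too small for an r of its own, so the values within groups were pooled as deviations from the group means: their median r was 0.71, and 1 pair was below 0, Wfs1 and Bok at -0.02. When the mean of the 10 markers in each library was subtracted first, a step chosen after seeing the data that makes the 10 values of a library sum to 0 and so favours negative pairs, 27 of the 45 pairs were below 0, with a median of -0.12.

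Dentate gyrus genes formed the tightest block. Their 10 pairs had r between 0.77 (C1ql2 and Dsp) and 0.97 (Dsp and Lct), with a median of 0.91. For Dsp and Lct, Spearman's rho was 0.98, the permutation p was 1e-05 for r and for rho, the smallest that the resamples can give, and the adjusted values were 3.21e-05 and 4.5e-05; r was 0.96 without the 2 libraries farthest from the median of Dsp. Prox1 and C1ql2 had r of 0.92 and rho of 0.93, and r was 0.90 without the 2 farthest libraries.

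The CA2 marker Rgs14 and the CA3 markers Bok and Iyd went with the dentate genes. The 5 pairs of Rgs14 with dentate genes had r between 0.75 and 0.82, all 5 with an adjusted permutation p under 0.05. Iyd had r of 0.91 with Lct (rho 0.87, adjusted permutation p of 3.21e-05 and 4.5e-05), of 0.89 with Tdo2 and of 0.88 with Rgs14. Bok was less close to the dentate genes, with r from 0.47 (Prox1; rho 0.45, permutation p of 0.0349 and 0.0488, adjusted 0.0428 and 0.0757) to 0.66 (Tdo2). Bok and Iyd had r of 0.78 and rho of 0.82, with adjusted permutation p of 0.000202 and 8.18e-05, and r of 0.80 without the 2 libraries farthest in Bok.

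By ranks, 0 of the 9 pairs of Wfs1 with another marker and 1 of the 9 pairs of Fibcd1, that with Rgs14, had an adjusted permutation p under 0.05. Wfs1 and Fibcd1 had r of 0.44 (permutation p = 0.0477, adjusted 0.0537) and rho of 0.15 (permutation p = 0.52, adjusted 0.532), and r was -0.08 without the 2 libraries farthest from the median of Wfs1. The 10 pairs of a dentate with a CA1 gene had r between 0.35 and 0.72, 8 of them with an adjusted permutation p under 0.05, but ranks gave 0 such pairs. The relation of Prox1 with Wfs1 rests on the extreme libraries, since r dropped from 0.51 (rho 0.35, permutation p of 0.0222 and 0.13, adjusted 0.0312 and 0.154) to 0.25 without the 2 farthest. That of C1ql2 with Fibcd1 does so too, with r of 0.72 (rho 0.37, permutation p of 0.00715 and 0.111, adjusted 0.0107 and 0.135) and 0.20 without the 2 farthest; leaving out melanoma plus ICI replicate 3 alone gave 0.26. For Dsp with Wfs1, r of 0.46 became 0.54 without the 2 libraries farthest in Dsp and 0.32 without those farthest in Wfs1; for Dsp with Fibcd1, 0.39 became 0.53 and 0.42. Fibcd1 and Rgs14 kept a value of 0.61 without the 2 farthest libraries (r = 0.69, rho = 0.69, adjusted permutation p of 0.00045 and 0.00206).

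**Figure D2:**
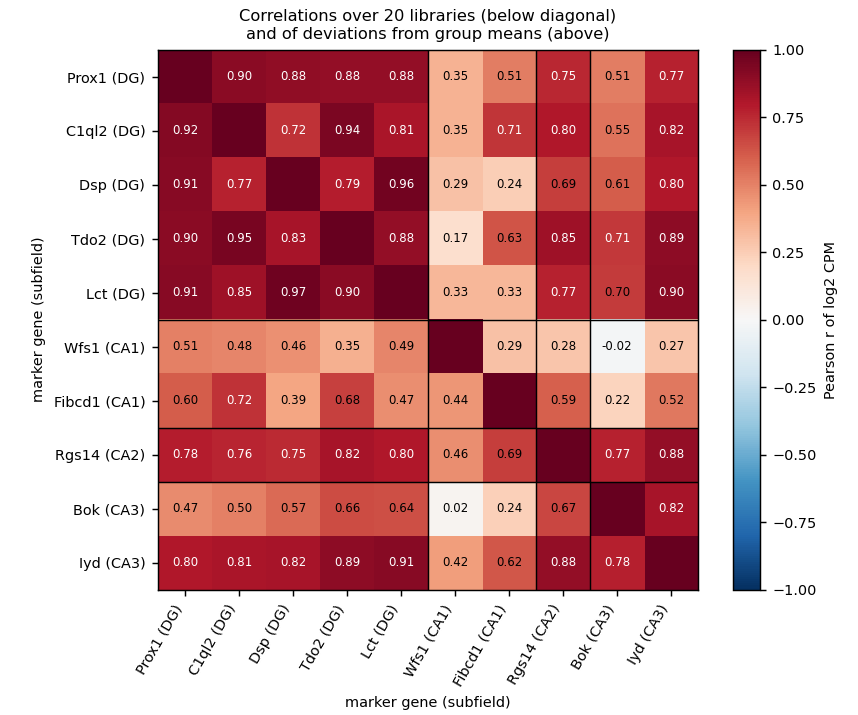
Pearson's r of log2 CPM for all 45 pairs of the markers, as colour and number, over 20 libraries below the diagonal and for deviations from the group means above it; DG is the dentate gyrus, and lines separate the subfields. The dentate block is between 0.77 and 0.97 below the diagonal, and the column of Wfs1 and the pair of Wfs1 and Bok (0.02) are the palest.

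**Figure D3:**
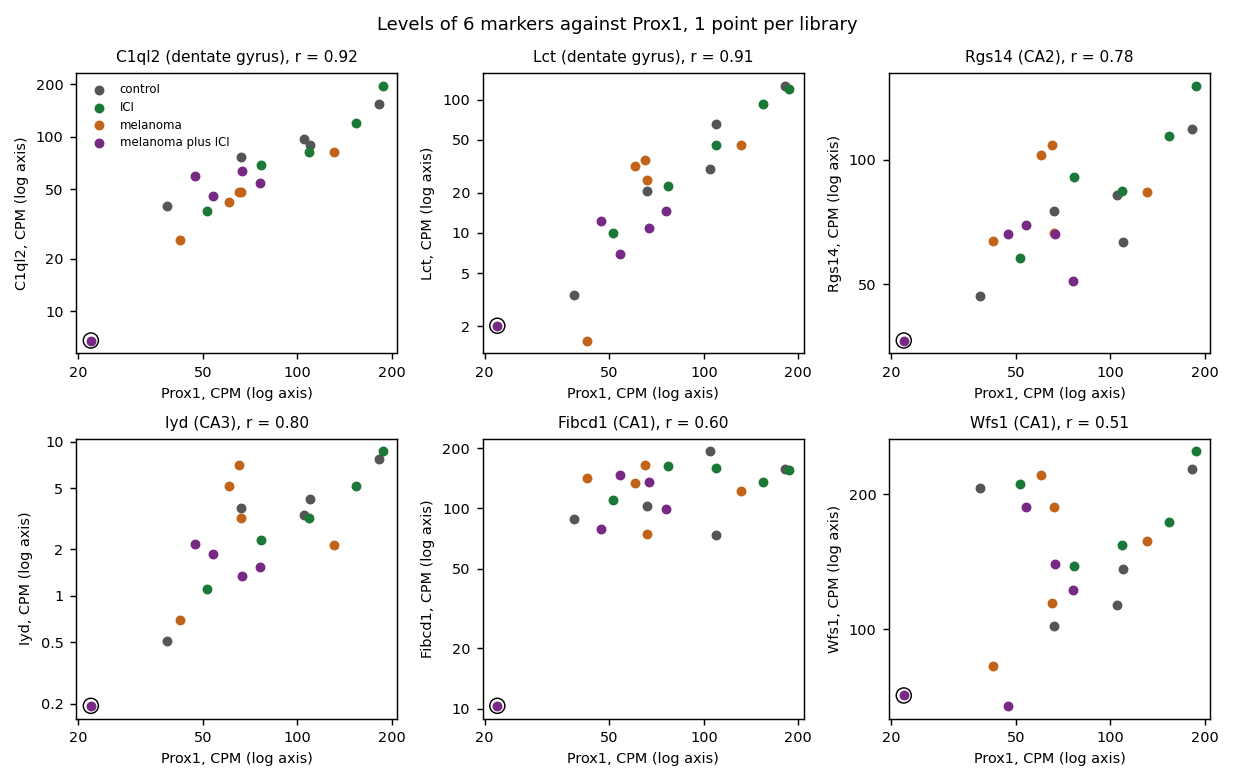
CPM of 6 markers against CPM of Prox1 on log axes, 1 point per library, coloured by group, with melanoma plus ICI replicate 3 ringed. C1ql2 and Lct follow Prox1 (r of 0.92 and 0.91), while Wfs1 is high in several libraries with little Prox1 (r of 0.51).

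To ask the same within groups and on the counts, each of the 18426 other tested genes was regressed on the log2 level of 1 marker per subfield with the group as a term (edgeR quasi-likelihood test, Benjamini-Hochberg over all genes). The slope is the log2 change of a gene per log2 unit of the marker. With Prox1, 858 genes (4.66%) were called, 482 of them with a rising slope (2.62%) and 376 with a falling one (2.04%). Of the other 9 markers, 6 rose with Prox1 and 0 fell. The 4 dentate genes had slopes of 1.10 ± 0.13 for C1ql2 (SE, edgeR adjusted p = 0.0001378), 1.59 ± 0.20 for Dsp (adjusted p = 0.0002772), 1.07 ± 0.17 for Tdo2 (adjusted p = 0.001655) and 1.93 ± 0.25 for Lct (adjusted p = 0.0002869). These 4 calls held in all 20 fits that left out 1 library. Rgs14 rose with a slope of 0.47 ± 0.10 (adjusted p = 0.01022) and Iyd with 1.28 ± 0.30 (adjusted p = 0.01978). The Rgs14 call was lost without control replicate 2 (edgeR adjusted p = 0.06605) or ICI replicate 5 (0.05597), and the Iyd call without control replicate 1 (0.09021), control replicate 2 (0.07547), ICI replicate 3 (0.06028) or ICI replicate 5 (0.08096). Wfs1 (0.20 ± 0.15), Fibcd1 (0.46 ± 0.24) and Bok (0.39 ± 0.19) had edgeR adjusted p of 0.5625, 0.3368 and 0.2951. Leaving out each library in turn, the Fibcd1 slope on Prox1 ran from 0.19 (without melanoma plus ICI replicate 3) to 0.55. The count of 858 genes moved to 369 without control replicate 1, 238 without control replicate 2, 452 without ICI replicate 3, 277 without ICI replicate 5 and 1328 without melanoma plus ICI replicate 3.

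With Rgs14, 1430 genes (7.76%) were called, 750 rising (4.07%) and 680 falling (3.69%), and 7 of the 9 other markers rose. Iyd had a slope of 2.30 ± 0.35 (edgeR adjusted p = 0.0004075), Bok of 1.08 ± 0.22 (0.00487), Tdo2 of 1.71 ± 0.30 (0.001476), C1ql2 of 1.56 ± 0.30 (0.003086) and Prox1 of 1.22 ± 0.28 (0.008809). Lct, at 2.42 ± 0.59 (edgeR adjusted p = 0.01548), lost the call without control replicate 2 (0.06111) or ICI replicate 5 (0.06573). Dsp, at 1.89 ± 0.56 (edgeR adjusted p = 0.04413), kept it in 8 of the 20 fits that left out 1 library, with adjusted p between 0.05244 and 0.1429 in the other 12. Wfs1 (0.31 ± 0.25) and Fibcd1 (0.94 ± 0.35) had edgeR adjusted p of 0.576 and 0.1209. The count of 1430 genes was 883 without ICI replicate 3 and 783 without ICI replicate 5.

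With Bok, 1338 genes (7.26%) were called, 685 rising (3.72%) and 653 falling (3.54%), and 4 of the 9 other markers rose. Iyd had a slope of 1.67 ± 0.28 (edgeR adjusted p = 0.002399) and Rgs14 of 0.57 ± 0.11 (0.006175), and both calls held in all 20 fits that left out 1 library. Tdo2 had a slope of 1.06 ± 0.27 (edgeR adjusted p = 0.0239), whose call was lost without control replicate 1 (0.09359), ICI replicate 3 (0.05865) or ICI replicate 5 (0.08254), and Lct one of 1.85 ± 0.54 (0.04649), whose call held in 5 of 20 such fits. Without control replicate 1, ICI replicate 3 or ICI replicate 5, 2 markers were called, and the genes called were 496, 663 and 785. Wfs1 had a slope on Bok of -0.01 ± 0.20 (edgeR adjusted p = 0.9789).

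With Wfs1, 1 gene (0.00543%) and 0 of the 9 other markers were called by edgeR, where 0 markers and 1330 genes (7.22%) had an unadjusted p under 0.05; DESeq2 called 8 genes (0.0434%) and 0 markers. The slopes on Wfs1 ran from -0.07 ± 0.27 for Bok to 1.03 ± 0.64 for Lct, and its fellow CA1 gene Fibcd1 had one of 0.27 ± 0.32 (edgeR adjusted p = 0.765). Leaving out each library in turn, this Fibcd1 slope ran from 0.005 (without melanoma plus ICI replicate 3) to 0.40. No marker was called with a falling slope on any of the 4 anchor genes. The 4 fits use the same libraries, so they are not independent of each other.

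**Figure D4:**
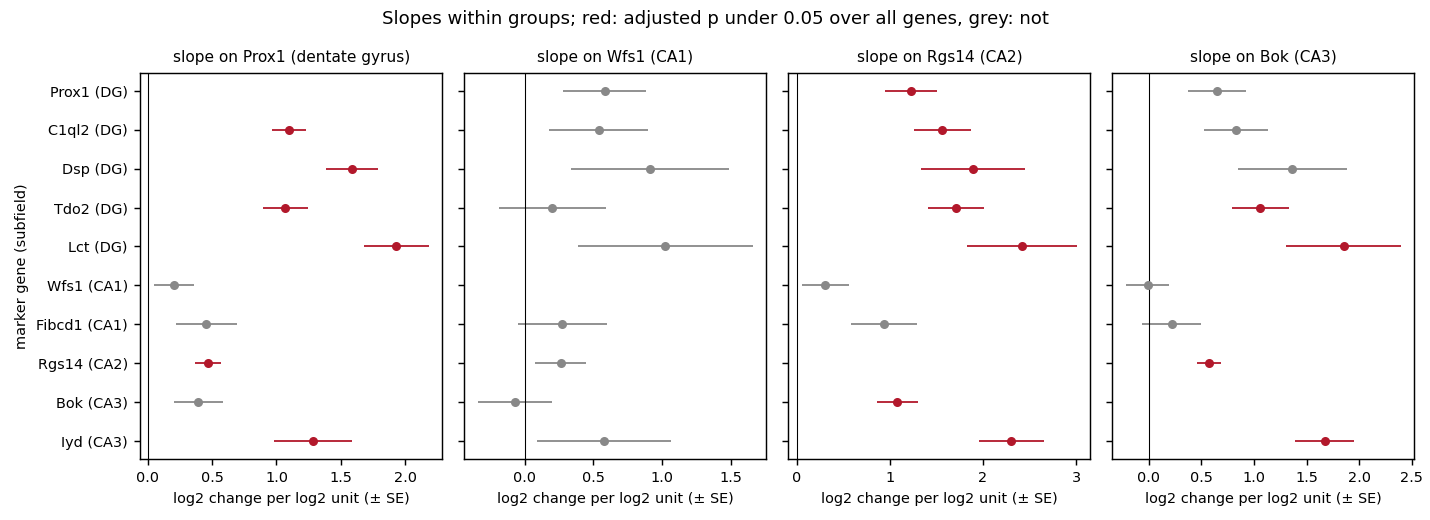
Slope of each marker (rows; DG is the dentate gyrus) on Prox1, Wfs1, Rgs14 and Bok (panels), as log2 change per log2 unit with its SE, from edgeR fits with the group as a term; red marks an adjusted p under 0.05 over all genes, and the horizontal scales differ. Slopes on Prox1 are red for 6 markers, on Rgs14 for 7, on Bok for 4 and on Wfs1 for 0.

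Of 8 further dentate genes, 6 rose with Prox1, 2 with Rgs14 and 0 with Bok, where 4 of 4, 5 of 5 and 2 of 5 dentate markers did. The genes that rose with Prox1 included Stxbp6 (0.46 ± 0.07, edgeR adjusted p = 0.001111) and Plk5, a polo-like kinase (0.64 ± 0.14, 0.0116); the third of the more abundant ones, C1ql3, was not called. The other 4 were Dock10, Trpc6, Rfx3 and Glis3, named after their values were seen. Of 7 further CA1 genes, 1 rose with Prox1 (Lefty1, 1.02 ± 0.23, edgeR adjusted p = 0.01414), and 4 had a positive r with it. The most abundant of them per kilobase, Mpped1, Ccn3 and Pou3f1, had r of -0.49, -0.46 and 0.50 with Prox1 and of 0.14, -0.19 and 0.09 with Wfs1. Of 8 further CA2 genes, 3 rose with Rgs14 (Amigo2, an adhesion protein, at 0.67 ± 0.19, and Avpr1b and Stard5), while Pcp4 and Necab2, the most abundant, had r of -0.46 and -0.06 with it. Avpr1b was near the floor, between 0.04 and 1.38 CPM. Of 7 further CA3 genes, 3 rose with Bok (Cpne4 at 0.60 ± 0.13, Cdh24 at 0.63 ± 0.14 and Nectin3) and 1 fell (Plagl1, -0.63 ± 0.18, edgeR adjusted p = 0.04168). With Rgs14, 4 rose, including the kainate receptor gene Grik4 (0.65 ± 0.16, 0.01727), and Coch (-1.27 ± 0.27, 0.005983) and Plagl1 (-0.95 ± 0.28, 0.04416) fell. With Prox1, 2 of the 7 rose and 0 fell, while 4 with a rising and 3 with a falling slope had an unadjusted edgeR p under 0.05. Their r with Prox1 ran from -0.63 (Coch) to 0.73 (Cpne4). Of the 30 genes of these lists, 0 were called with Wfs1.

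Scores of neocortex, interneuron, meninges, striatum and pan-neuronal genes had a negative r with all 10 markers, and the pan-neuronal score passed the threshold with 0 of them. The score of 7 neocortex genes, their mean log2 CPM, had an adjusted permutation p under 0.05 for 9 markers (Benjamini-Hochberg over 160 relations of markers with lists), and for 6 by ranks. For Prox1 r was -0.75 (rho -0.66, permutation p of 0.00013 and 0.00178, adjusted 0.0026 and 0.019; -0.60 without the 2 farthest libraries). For Fibcd1 r was -0.73 (rho -0.80, permutation p of 3e-05 and 7e-05, adjusted 0.00096 and 0.00187; -0.72 without the 2 farthest), and for Rgs14 it was -0.75 (rho -0.73, permutation p of 0.00011 and 0.00045, adjusted 0.00251 and 0.0072; -0.59 without the 2 farthest). Bok was the exception, with r of -0.29 (permutation p = 0.212, adjusted 0.357). In the count fits, 3 of the 7 neocortex genes fell with Prox1 (Cux2 at -0.64 ± 0.11, Hs3st2 and Rorb), named after their values were seen. On Rgs14, all 7 genes of each of 3 lists had a slope below 0, with a median of -1.60 for striatum, -0.67 for neocortex and -0.67 for meninges.

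Interneurons had an adjusted permutation p under 0.05 with 5 of 10 markers by r and 8 by ranks, meninges with 4 and 6, striatum with 3 (C1ql2, Tdo2 and Iyd) and 5 (Tdo2, Lct, Rgs14, Bok and Iyd), and astrocytes with 4 and 3, all with a negative sign. For some markers the striatum r depended on extreme libraries. Without the 2 farthest libraries it went from -0.53 to -0.08 for Lct, from -0.57 to -0.23 for Tdo2 and from -0.43 to -0.25 for Rgs14. It went from -0.57 to -0.44 for C1ql2, from -0.54 to -0.52 for Iyd and from -0.42 to -0.45 for Bok. For interneurons and Prox1 r was -0.71 (rho -0.73, permutation p of 0.00061 and 0.00033, adjusted 0.00887 and 0.00587; -0.65 without the 2 farthest libraries). For astrocytes and Rgs14 r was -0.67 (rho -0.63, permutation p of 0.00118 and 0.00315, adjusted 0.0118 and 0.0292; -0.55 without the 2 farthest). The choroid plexus score had a positive r with 8 of the 10 markers, from -0.16 (Fibcd1) to 0.37 (Dsp), and the thalamus score ran from -0.21 (Rgs14) to 0.30 (Wfs1). The lowest adjusted permutation p was 0.221 for choroid plexus by r and 0.426 by ranks, and 0.347 and 0.305 for thalamus. A score of 3 genes of the ventral pole of the hippocampus (Trhr, Grp and Ccn3, the last also in the CA1 list) had a negative r with 9 of the 10 markers, and passed with 0 by r and with 2 by ranks. These were Lct (r -0.49, rho -0.60, permutation p of 0.0313 and 0.00613, adjusted 0.0835 and 0.0363; -0.82 without the 2 farthest libraries) and Iyd (r -0.39, rho -0.585, permutation p of 0.0871 and 0.00755, adjusted 0.183 and 0.0392; -0.79).

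Every gene of these lists had counts in all 20 libraries. The neocortex list summed to between 142.6 and 368 CPM in control, 168.1 and 316.2 in ICI, 188.3 and 274.5 in melanoma, and 196 and 510.9 in melanoma plus ICI, with Tbr1 as its most abundant gene (39.0 to 127.8 CPM). The striatum list summed to 133.9 to 182.2 CPM in control, 123.4 to 165.2 in ICI, 124.6 to 1252 in melanoma and 128.9 to 654.4 in melanoma plus ICI, led by Ppp1r1b (50.8 to 504 CPM). The choroid plexus list, led by the transthyretin gene Ttr, ran from 30.5 to 6131 CPM in control, 19.7 to 2192 in ICI, 41.9 to 3650 in melanoma and 65.1 to 6503 in melanoma plus ICI. With the scores of these 3 tissues as covariates, C1ql2 (1.19 ± 0.13, edgeR adjusted p = 0.001122), Dsp (1.58 ± 0.24, 0.008588), Tdo2 (1.29 ± 0.16, 0.001397) and Lct (2.17 ± 0.24, 0.001122) still rose with Prox1, and Rgs14 (0.32 ± 0.11, 0.3284) and Iyd (1.26 ± 0.32, 0.1791) were no longer called. The genes called with Prox1 were 41, in place of 858, and the Iyd slope was nearly the same as without the covariates. In that fit all 9 slopes on Wfs1 were below 0, from -0.54 ± 0.42 for Tdo2 to -0.01 ± 0.84 for Lct, with edgeR adjusted p between 0.796 and 0.9979. Slopes of Wfs1 on Prox1 (-0.14 ± 0.22, edgeR adjusted p = 0.8066), Rgs14 (-0.60 ± 0.39, 0.2978) and Bok (-0.32 ± 0.20, 0.2506) were below 0 in it too, and none of these passed the threshold.

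The balance between fields was described as the difference of the mean log2 CPM of their markers; since the genes differ in length and level, only its change between libraries can be read. Dentate minus CA1 ran from -4.08 in melanoma replicate 3 to -1.06 in control replicate 5, with a group mean of -1.98 ± 1.15 for control (SD, n = 5), -1.99 ± 0.93 for ICI, -2.58 ± 0.94 for melanoma and -2.67 ± 0.60 for melanoma plus ICI. Dentate minus CA3 ran from 0.05 in melanoma replicate 4 to 2.12 in melanoma replicate 1, and its group means were 1.27 ± 0.61, 1.54 ± 0.17, 0.75 ± 0.82 and 0.75 ± 0.45 in the same order. CA3 minus CA1 ran from -4.94 in control replicate 1 to -2.25 in melanoma replicate 4, with 1.87% of its variance between groups. That share was 13.1% for dentate minus CA1 and 31.4% for dentate minus CA3. Libraries such as control replicate 1 and melanoma replicate 3 were poor in dentate markers for their level of CA1 markers.

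Between the groups, 0 of the 18427 genes tested and 0 of the 10 markers were called by edgeR in any of the 6 contrasts. DESeq2 called 0 markers too. Of all genes it called 47 (0.255%) for the interaction. It called 9 (0.0488%) where melanoma plus ICI was set against ICI, 8 (0.0434%) where melanoma was set against control, 1 (0.00543%) where ICI was, and 0 for the remaining pair of contrasts. The contrasts share groups, so they are not independent. Markers with an unadjusted p under 0.05 were all lower in melanoma plus ICI. Against ICI they were 8 of 10, where 8.63% of all genes (831 of the 1590 lower, 4.51%) had such a p. Against control they were 5 of 10, where 2.38% of genes had one (1.28% lower), and against melanoma 1 of 10, where 5.5% had one (2.87% lower). For ICI against control and melanoma against control they were 0 of 10, beside 5.23% and 5.11% of genes.

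Levels in melanoma plus ICI were below those in ICI for all 10 markers, and the differences were largest for Lct and Dsp of the dentate gyrus. On the log2 scale the difference was -2.64 ± 0.84 (SE) for Lct, -2.08 ± 0.73 for Dsp, -1.17 ± 0.49 for Tdo2, -1.13 ± 0.48 for C1ql2 and -1.12 ± 0.41 for Prox1. It was -1.52 ± 0.67 for Iyd, -0.78 ± 0.25 for Rgs14, -0.65 ± 0.30 for Wfs1, -0.62 ± 0.42 for Fibcd1 and -0.21 ± 0.35 for Bok. The edgeR adjusted p lay between 0.5631 and 0.8458 for the 10, the ranges of the 2 groups overlapped for each of them, and the median was -1.13, beside 0.02 over all genes. Leaving out each library in turn, the Fibcd1 difference ran from -0.84 to -0.32, the latter without melanoma plus ICI replicate 3. Without melanoma plus ICI replicate 3, or without ICI replicate 3, 4 of the 10 had an unadjusted p under 0.05; without ICI replicate 4 there were 5, and with the choroid plexus, striatum and neocortex scores as covariates 2. The wider subfield lists differed less: 8 of 8 further dentate genes were lower in melanoma plus ICI, 6 of them with an unadjusted p under 0.05 (median -0.53), while such a p was found for 2 of 7 further CA1 genes (median -0.29) and 1 of 8 CA2 genes (-0.30), all lower, and for 1 of 7 CA3 genes (-0.11), which was higher. The differences between these lists were not tested.

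Several lists of other tissues were higher in melanoma plus ICI than in ICI in all their genes. These were choroid plexus (6 of 6, median log2 difference 1.375), striatum (7 of 7, 0.93), red blood cells (5 of 5, 0.92), meninges (7 of 7, 0.72), neocortex (7 of 7, 0.43), interneurons (6 of 6, 0.15) and oligodendrocytes (5 of 5, 0.15). An unadjusted p under 0.05 was reached by 3 meninges, 2 neocortex and 1 red blood cell genes of these, and meninges markers summed to 89.3 to 197.6 CPM beside 33.2 to 139.6 CPM in ICI. In melanoma plus ICI, replicate 3 alone had a high striatum sum, 654.4 CPM, and the next was 194 CPM. The neocortex sum of that group was highest in replicates 3 and 1, at 510.9 and 424.1 CPM, and the next was 258.8 CPM. The part of these tissues in the lower marker levels was tested no further than by that fit with covariates, which included only choroid plexus, striatum and neocortex.

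Against control, melanoma plus ICI had a log2 difference of -2.40 ± 0.84 for Lct (edgeR adjusted p = 0.9997), with -1.85 for Dsp, -1.46 for Iyd, -1.14 for Tdo2, -0.98 for C1ql2, -0.91 for Prox1, -0.42 for Wfs1 and Rgs14, -0.38 for Fibcd1 and -0.31 for Bok. The median of the 10 was -0.95, beside 0.00264 over all genes, and -0.49 for the 8 further dentate genes, all lower, 1 of them with an unadjusted p under 0.05. Leaving out each library in turn, Fibcd1 ran from -0.61 to -0.09, Bok from -0.49 to -0.02, Wfs1 from -0.65 to -0.25 and Rgs14 from -0.55 to -0.22. The values nearest 0 came without melanoma plus ICI replicate 3 for Fibcd1, control replicate 4 for Bok and control replicate 2 for Wfs1 and Rgs14. In the same comparison 7 of 7 striatum (median 0.95), 7 of 7 neocortex (0.25) and 7 of 7 meninges genes (0.34) were higher in melanoma plus ICI. The striatum sum of that group was 654.4 CPM in replicate 3 and at most 194 CPM in its other libraries, beside up to 182.2 CPM in control. Its neocortex sum passed the control range, which ended at 368 CPM, only in replicates 1 (424.1 CPM) and 3 (510.9 CPM). The count of 5 at an unadjusted p under 0.05 was 1 without control replicate 2, 2 without melanoma plus ICI replicate 3 and 3 without control replicate 3 or control replicate 5; the highest count was 7, without control replicate 1. Smaller differences were found for the single treatments: the median of the 10 markers was 0.22 for ICI against control, where Rgs14 had the largest value (0.37) and Bok the lowest (-0.11), and -0.28 for melanoma against control, where C1ql2 had the lowest (-0.89) and Rgs14 the highest (0.14). All 5 dentate markers were lower in melanoma than in control (median -0.67), as were 8 of 8 further dentate genes (-0.45), 3 of which had an unadjusted p under 0.05; of the further CA1, CA2 and CA3 genes 0 had such a p. In melanoma against control all 7 striatum genes were higher with an unadjusted p under 0.05 and a median of 2.17, and 0 markers had such a p also with the tissue scores as covariates; 1 had it, lower in melanoma, in a fit of the compared groups alone and without control replicate 1, melanoma replicate 1 or melanoma plus ICI replicate 3. Melanoma plus ICI against melanoma ran from -1.57 for Lct to -0.10 for C1ql2, while all 7 striatum genes were lower too (median -1.18) and the 6 choroid plexus (1.45) and 7 meninges genes (0.60) were higher. The 1 marker with an unadjusted p under 0.05 in it was Rgs14 (-0.56 ± 0.25, edgeR adjusted p = 0.825). That count was 4 with the tissue scores as covariates, 3 in a fit of the compared groups alone, 2 with DESeq2, and 0 with the replicate block or with no filter on low counts. It was 4 without melanoma replicate 3, 3 without control replicate 1, 2 without ICI replicate 3, ICI replicate 5 or melanoma plus ICI replicate 1, and 0 without control replicate 4, melanoma replicate 2, melanoma replicate 4, melanoma plus ICI replicate 3 or melanoma plus ICI replicate 4. In the interaction, the ICI effect with a tumour minus that without, the values ran from -1.81 for Lct to -0.15 for Bok, and Rgs14 was at -0.92 (edgeR adjusted p = 0.4845), the 1 marker with an unadjusted p under 0.05 where 10.3% of genes had one (4.28% lower); without ICI replicate 3 there were 0, and without control replicate 2 there were 3.

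**Figure D5:**
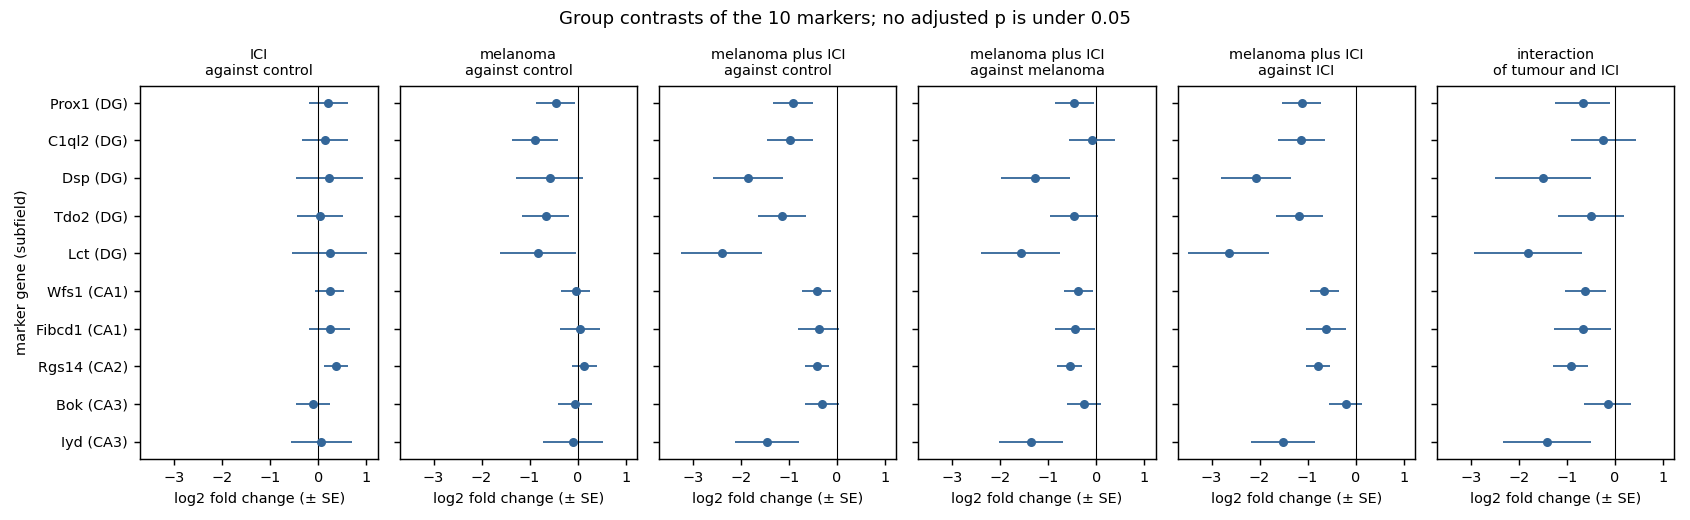
Log2 fold change of each marker (rows; DG is the dentate gyrus) in the 6 contrasts (panels) with its SE, from the edgeR fit over all 20 libraries. The values lie farthest below 0 for Lct in melanoma plus ICI against ICI (-2.64) and against control (-2.40), and no marker has an adjusted p under 0.05.

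The genes most like 4 of the markers were named by Pearson's r of log2 CPM over the 20 libraries among genes with a mean of at least 1 CPM; since they were picked for this value, it is a description. The 5 closest to Prox1 were Vwa3b (r = 0.97, rho = 0.94), Maml2 (0.95, 0.99), Lhfpl2 (0.95, 0.95), Capn3 (0.95, 0.92) and Il20rb (0.94, 0.91), and the most opposed were Fbxl19 (-0.89, -0.84), Sh2d3c (-0.86, -0.83) and Dusp15 (-0.85, -0.74). Vwa3b ran from 1.86 to 25.05 CPM and so spanned a wider fold range than Prox1 itself. Nearest to Wfs1 were Cdh23 (r = 0.93, rho = 0.90), Ppl (0.87, 0.91), Foxp4 (0.80, 0.77), Cemip (0.80, 0.77) and Ppp1r10 (0.77, 0.65), and the most opposed were Cep83 (-0.79, -0.75), Fbxl14 (-0.76, -0.73) and Neu2 (-0.74, -0.63). None of the other 9 markers was among the 5 genes nearest to Wfs1, and the same held for Prox1, Rgs14 and Bok.

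The genes most like Rgs14 were Arl15 (r = 0.96, rho = 0.94), Ncdn (0.95, 0.90), Ptk2b (0.94, 0.90), Ddn (0.94, 0.92) and Faah (0.94, 0.93). In CPM, not per length, 3 of them had means far above that of Rgs14: Ncdn had a mean of 2160 CPM (1068 to 3613), Ddn of 1775 CPM (941.4 to 2827) and Ptk2b of 908 CPM (462.1 to 1543). The most opposed to Rgs14 were Slc13a5 (-0.91, -0.88), Bcl2 (-0.91, -0.91) and Pik3r6 (-0.90, -0.87). Nearest to Bok were Tmem114 (r = 0.93, rho = 0.90), Glo1 (0.92, 0.89), Abracl (0.89, 0.89), Thrsp (0.87, 0.84) and Ppp3ca, the catalytic subunit of calcineurin (0.87, 0.88), and the most opposed were Tmem164 (-0.92, -0.91), Cntn5 (-0.89, -0.86) and Cstf2 (-0.88, -0.91). Without the 2 libraries farthest in the marker, r of these 32 genes kept its sign, from 0.62 (Ppp1r10) to 0.97 (Maml2) and from -0.59 (Neu2) to -0.92 (Bcl2).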

How the data were processed

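The deposited data are whole-number counts per gene and library for 49671 genes, in the layout that featureCounts writes, per the file headers. The submitters' processing notes name STAR 2.5.2b and DESeq2 1.16.1. The counting program, strand setting, treatment of multi-mapping reads, genome build and annotation release are not given in the sources used here. Symbols were taken from GENCODE M21 (GRCm38), which matched 49412 gene identifiers and gave the same start and end for 45214. Promoters came from RefSeq (GRCm38.p6), matched by symbol.

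The counts were fitted in R 4.3.3 with edgeR 4.0.16. After the low-count filter of filterByExpr, applied by group (minimum count 10, minimum total 15), 18427 genes were left. TMM factors lay between 0.9555 and 1.043. A quasi-likelihood model with 1 mean per group over all 20 libraries had 16 residual degrees of freedom. Association fits added the centred log2 CPM (prior count 2) of Prox1, Wfs1, Rgs14 or Bok. A gene was called at a Benjamini-Hochberg adjusted p under 0.05 over all genes tested. Correlations used log2 CPM with the same prior count and permutation tests in scipy 1.17.1 with 100000 resamples.

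The alternatives were median-ratio scaling, DESeq2 1.42.0, the replicate block, no filter, fits of the compared groups alone, tissue scores as covariates, no group term, a prior count of 0.5, and each library left out in turn. The markers and lists were chosen with earlier results of these data known. Besides the 10 markers, the text names by rule the 5 genes with the highest and the 3 with the lowest r with each of Prox1, Wfs1, Rgs14 and Bok, the 3 genes of each wider list with the highest level per kilobase, and the most abundant gene of each tissue list. Other genes were named after their values were seen. The result for 1 gene is not reported here.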

Additional observations from a re-analysis of the deposited data

Results flagged for a closer look

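Each of the 10 markers was examined in each of the 4 groups for a library whose gap to its nearest neighbour, divided by the range of the group, passed Dixon's critical value of 0.71 for 5 samples. Chance gives about 1 in 20 such cases, which is 2 of 40, and 4 were found. C1ql2 in melanoma plus ICI replicate 3 was at 2.79 on the log2 CPM scale (6.81 CPM), with the next library of that group at 5.52. Fibcd1 in the same library was at 3.38 (10.3 CPM), with the next at 6.30. Iyd in the same library was at -1.84 (0.194 CPM, 5 counts), with the next at 0.52. Lct in melanoma replicate 3 was at 0.72 (1.56 CPM), with the next library of its group at 4.64. All 4 are the lowest of their group. Melanoma plus ICI replicate 3 had the highest summed level of neocortex markers of the 20 libraries (510.9 CPM), and melanoma replicate 3 the highest of striatum markers (1252 CPM); the part of these tissues in the low values was not tested.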

How the results depend on the processing

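Replicate numbers did not pair the libraries. Over the 30 pairs with the same number in different groups, the correlation of deviations from the group means ran from -0.35 to 0.53 (mean 0.0317), and 6 of 20 libraries correlated best with their own number. With the replicate block, edgeR called 313 genes with Prox1, 0 with Wfs1, 684 with Rgs14 and 609 with Bok, and 2 markers with Bok; the slope between Bok and Wfs1 changed sign, to 0.1758 for Bok on Wfs1 and 0.1374 for Wfs1 on Bok. In that fit Rgs14 (edgeR adjusted p = 0.06418) and Iyd (0.07725) were no longer called with Prox1, Prox1 (0.05058) and Dsp (0.1288) with Rgs14, or Tdo2 (0.05777) and Lct (0.06644) with Bok. Under the block 3 markers, in place of 5, had an unadjusted p under 0.05 in melanoma plus ICI against control, as they did with no filter on low counts and without the 2 libraries apart on the first component.

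The rise of C1ql2, Dsp, Tdo2 and Lct with Prox1 kept its sign and call in every alternative run, and 0 markers were called in any group contrast under any of them. DESeq2 called 1 gene for ICI against control, 8 for melanoma against control, 47 for the interaction and 9 in melanoma plus ICI against ICI, and 1408 with Prox1, 8 with Wfs1 and 2121 with Bok. With Bok it called 6 markers in place of 4, adding C1ql2 (DESeq2 adjusted p = 0.04807) and Dsp (0.01631). With no filter, 2 genes were called with Wfs1 and 890 with Bok, and Dsp (edgeR adjusted p = 0.1384) and Lct (0.05908) lost their call with Rgs14, and Lct (0.1279) with Bok. With only the groups compared, 3 genes were called for melanoma against control. With no group term, 1779 genes were called with Prox1, 2 with Wfs1 and 2162 with Rgs14, Fibcd1 was called with Rgs14 (edgeR adjusted p = 0.02963), and the slopes were 0.01292 for Bok on Wfs1 and 0.02667 for Wfs1 on Bok.

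With the choroid plexus, striatum and neocortex scores as covariates, 41 genes were called with Prox1, 5 with Wfs1, 3215 with Rgs14 and 3946 with Bok, and 4 markers with Rgs14 and 2 with Bok. In that fit Prox1 (edgeR adjusted p = 0.06979), C1ql2 (0.07782) and Dsp (0.07195) were no longer called with Rgs14, nor Tdo2 (0.05225) and Lct (0.08637) with Bok. The slopes that changed sign were those of Wfs1 on Prox1 (-0.1422) and on Rgs14 (-0.5978), of Fibcd1 on Rgs14 (-0.1946) and on Bok (-0.1714), and on Wfs1 those of Prox1 (-0.08688), C1ql2 (-0.1225), Dsp (-0.224), Tdo2 (-0.5435), Lct (-0.01452), Fibcd1 (-0.3096), Rgs14 (-0.2015) and Iyd (-0.2102). None of these slopes was called with or without the covariates, and the cause was not tested. That fit left 1 marker, in place of 5, with an unadjusted p under 0.05 in melanoma plus ICI against control, and 4, in place of 1, against melanoma.

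Further fits left out libraries, a choice made after seeing the data. Without control replicate 4 and melanoma plus ICI replicate 1, 1 gene was called for the interaction, 1452 with Prox1 and 2450 with Rgs14, the slopes were 0.2393 for Bok on Wfs1 and 0.1657 for Wfs1 on Bok, and Bok was at 0.1848 in ICI against control. Without these and melanoma plus ICI replicate 3, 4 genes were called for melanoma against control, 45 for melanoma plus ICI against melanoma and 27 for the interaction, and 2134 with Prox1, 0 with Wfs1, 2496 with Rgs14 and 2308 with Bok, with 7 markers called with Bok and 7 with Prox1. In that fit the slopes were 0.224 for Bok on Wfs1, -0.2315 for Fibcd1 on Wfs1 and 0.1249 for Wfs1 on Bok, Bok was at 0.1795 in ICI against control, and C1ql2 was at 0.1528 in melanoma plus ICI against melanoma. It left 1 marker with an unadjusted p under 0.05 in melanoma plus ICI against control and 2 against ICI.

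Leaving out each library in turn, the genes called ran from 238 to 1328 with Prox1, 783 to 1900 with Rgs14, 496 to 1464 with Bok and 1 to 2 with Wfs1, from 0 to 3 for melanoma against control, 0 to 12 for melanoma plus ICI against melanoma and 0 to 11 for the interaction. The highest counts for these 3 contrasts came without melanoma plus ICI replicate 3. Markers called with Prox1 ran from 4 to 6, with Rgs14 from 5 to 7 and with Bok from 2 to 5. Dsp was called with Bok without control replicate 4 (edgeR adjusted p = 0.03232) or melanoma replicate 1 (0.04174), and C1ql2 without melanoma plus ICI replicate 3 (0.04813). The slope of Bok on Wfs1 ran from -0.2403 to 0.1149 and that of Wfs1 on Bok from -0.1467 to 0.1118. Among group differences, Bok ran from -0.3394 to 0.1848 in ICI against control, -0.3947 to 0.01683 in melanoma plus ICI against ICI and -0.438 to 0.1784 in the interaction, Rgs14 from -0.003555 to 0.3382 in melanoma against control, and C1ql2 from -0.2566 to 0.1862 in melanoma plus ICI against melanoma. The median r of the 45 pairs ran from 0.6831 (without melanoma plus ICI replicate 3) to 0.758, with 0 to 1 pairs below 0. Without the TMM factor, with deviations from group means and without the 3 libraries, 1 pair was below 0; relative to the mean of the 10 markers 27 were, with a median r of -0.1171, by the construction of that scale. Among the 10 markers, depth limits mainly Tdo2 and Iyd, whose lowest libraries held 11 and 5 counts.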
